A study of Mus musculus with 10 samples.

Results

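The receptors and signalling genes of interleukin 13 (IL-13) and interleukin 4 (IL-4) were followed in the uterus of HSD17B1TG and wild-type (WT) mice. The group holds 6 genes of the 29268 in the count table. They are the cytokine genes *Il13* and *Il4*, the receptor chain genes *Il13ra1*, *Il13ra2* and *Il4ra*, and the transcription factor gene *Stat6*. They were taken by gene symbol, and the group was put together with the difference of *Il13ra2* between the genotypes in view. The differences of the 6 genes between HSD17B1TG and WT are therefore given as a description, without p-values. Where 1 of them is counted as passing the thresholds used for all genes, the count describes the gene and is no evidence for the group.

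The study sequenced uterine RNA of 5 HSD17B1TG and 5 WT females aged 4 months and made 1 library from each. HSD17B1TG mice are FVB/N mice that carry, in the heterozygous state, the human *HSD17B1* cDNA under the CMV-enhanced chicken beta actin promoter, which drives it in all tissues and not in the uterus alone. The enzyme turns the weak estrogen estrone into estradiol. By the study's methods the estrous cycle is absent in the transgenic females, and the phase was not matched among WT females, so genotype and cycle phase cannot be told apart. The labels name no treatment. The human transcript was not analysed here, and the mouse gene does not measure the transgene, so the genotype labels were not checked by it. The HSD17B1TG mice are written TG1 to TG5, and the WT mice WT1 to WT5, by the order of their entries, and a shared number pairs no mice.

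IL-4 and IL-13 are cytokines of type 2 immunity, made mainly by T helper cells, innate lymphoid cells, mast cells and basophils. IL-4 binds a receptor of IL4RA with the common gamma chain or with IL13RA1, and IL-13 binds that of IL4RA with IL13RA1. Both receptors pass the signal through Janus kinases to STAT6. IL13RA2 binds IL-13 with high affinity, has a short cytoplasmic tail and is best known as a decoy receptor that withholds IL-13 from the signalling receptor.

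Both IL-13-binding chains are encoded on the X chromosome, and their start sites are shown because their mean levels differed between the genotypes in opposite directions. In GRCm38, *Il13ra2* (ENSMUSG00000031289) lies on the minus strand at chrX:147383476-147429192 and *Il13ra1* (ENSMUSG00000017057) on the plus strand at chrX:36112110-36171259. The 250 bases before the RefSeq start of each gene (GRCm38.p6) are printed 5′ to 3′ on the strand of the gene. Capitals mark TATAAA and the AP-1 element TGANTCA, the motif of FOS and JUN factors.
Il13ra2, chrX:147429193-147429442, minus strand: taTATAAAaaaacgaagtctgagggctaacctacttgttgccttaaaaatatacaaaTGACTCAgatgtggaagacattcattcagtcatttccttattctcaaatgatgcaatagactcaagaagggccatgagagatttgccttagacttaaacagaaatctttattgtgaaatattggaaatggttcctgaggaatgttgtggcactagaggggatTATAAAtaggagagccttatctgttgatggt
Il13ra1, chrX:36111858-36112107, plus strand: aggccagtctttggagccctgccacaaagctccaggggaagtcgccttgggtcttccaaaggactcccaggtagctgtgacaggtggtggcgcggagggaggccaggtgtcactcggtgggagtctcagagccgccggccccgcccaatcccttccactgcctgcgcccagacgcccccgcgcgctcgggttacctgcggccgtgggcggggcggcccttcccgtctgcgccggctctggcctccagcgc
The *Il13ra2* window had a GC content of 36.0%, and 5.81% of the 32851 RefSeq windows of this length had a lower one. The *Il13ra1* window had a GC content of 70.8%, above that of 91.7% of windows. In the *Il13ra2* window, TATAAA began at 31 and 248 bases before the start, and TGACTCA at 193 bases before it. TATAAA was found on either strand in 12.4% of all windows and TGANTCA in 6.75%. The *Il13ra1* window held neither.

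The search covered 6 motifs on both strands. The STAT6 element, TTC and GAA with 4 bases between them, was present in 5.85% of all windows, and the shorter STAT element, with 3 bases between them, in 7.02%. Among the genes of the group, the former was found once, as TTCACAGGAA at 167 bases before the upstream start of *Il4*. *Il13* held TATAAA at 29 bases before its start and an overlapping match on the opposite strand. The windows of *Il4ra* and *Stat6* held none of the 6 motifs. The estrogen response element, GGTCA and TGACC with 3 bases between them and found in 0.0639% of all windows, and the progesterone response element, GNACA and TGTNC with 3 bases between them and found in 0.387%, were in no window of the group. A missing match says only that these letters are not in these 250 bases.

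The libraries held 14817228 to 23271988 counts on genes, so that 3 counts corresponded to between 0.129 and 0.202 CPM (counts scaled by the library total), and values below were not told from absence. This limit covers counting error only. Levels are given as FPKM, fragments per kilobase scaled to the library, which allow genes to be compared. Fold changes are on the log2 scale from edgeR on raw counts. Their SE was derived as the size of the log2 fold change over the square root of its quasi-likelihood F statistic. A gene was called when its edgeR adjusted p-value was under 0.05, its fold change over 2 and its mean FPKM over 1 in either group. Epithelial and smooth muscle markers were abundant in every uterus, with summed levels of 452 to 2829 and 404 to 7243 FPKM. The number of calls among all genes rested on single mice. It was 367 up and 354 down with all mice, 888 up and 666 down without WT4, and 38 up and 27 down without TG5.

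Of the 6 genes, 5 passed the low-count filter and *Il13* did not. With all mice *Il13ra2* was the only gene called, as lower in HSD17B1TG, where 4.24% of the 16993 genes tested were called in either direction and 2.08% as lower and 2.16% as higher. A share of 6.16% of the genes tested had an adjusted p-value under 0.05 at any fold, and the groups did not overlap for 6.69%. *Il13ra2* was also the only gene of the group with every HSD17B1TG mouse below every WT mouse, a pattern of 2.65% of all genes tested. *Stat6* was the only gene with every HSD17B1TG mouse above every WT mouse, a pattern of 4.04%. Without WT4, *Il13ra1* also passed the thresholds, as higher in HSD17B1TG, so that 2 genes of the group were counted. The group was chosen on this comparison, and nothing is read from these counts.

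The ligand *Il13* (ENSMUSG00000020383, chr11:53631324-53634702, minus strand) was at the limit of detection in every uterus. It had 2, 2, 1, 0 and 0 counts in TG1 to TG5 and 0, 2, 1, 0 and 0 counts in WT1 to WT5. The highest level was 0.0954 FPKM in HSD17B1TG and 0.0874 FPKM in WT, and a difference was not detectable at this depth.

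*Il4* (ENSMUSG00000000869, chr11:53602982-53618669, minus strand), whose 5′ end lies 12654 bases from the 3′ end of *Il13* in the shared cytokine cluster, was low but measured in all mice, with 25 to 150 counts. Its levels were 2.32, 1.59, 1.08, 1.72 and 3.09 FPKM in TG1 to TG5 and 1.86, 3.95, 4.50, 2.05 and 5.97 FPKM in WT1 to WT5. The 3 highest WT mice lay above all HSD17B1TG mice, while WT1 and WT4 lay among them. The means were 1.96 ± 0.769 FPKM in HSD17B1TG and 3.66 ± 1.73 FPKM in WT (SD, n = 5 each). The log2 fold change was -0.91 (SE 0.41).

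The decoy gene *Il13ra2* was close to absent in every HSD17B1TG uterus and present in every WT uterus. The counts were 1, 1, 1, 0 and 7 in TG1 to TG5 and 379, 245, 711, 126 and 122 in WT1 to WT5. The levels were 0.0235, 0.0252, 0.0233, 0 and 0.197 FPKM in HSD17B1TG and 6.76, 5.65, 19.3, 2.67 and 2.61 FPKM in WT. TG5 was the highest HSD17B1TG mouse and still far below the lowest WT mouse, WT5, and the groups did not overlap. WT3 stood above the other WT mice.

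Because 10 counts in all were found in HSD17B1TG against 1583 in WT, the size of the difference was limited by counting. The pooled CPM ratio of WT over HSD17B1TG was 153, with a 95% Clopper-Pearson interval of 83.1 to 320 that covers counting error only. Without TG5, which held 7 of the 10 counts, the ratio was 409 with an interval of 140 to 1984. The edgeR log2 fold change moved from -7.09 to -8.45 without TG5. In FPKM, *Il13ra2* in WT was above 61.1% of the genes tested, and in HSD17B1TG above 0.247%. The low-count filter had removed genes low in both genotypes, and *Il13ra2* passed it through its WT counts. Its low rank in HSD17B1TG therefore follows in part from the filter.

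The signalling chain *Il13ra1* was higher in the mean of HSD17B1TG. It had 17.3, 22.3, 24.9, 19.998 and 31.1 FPKM in TG1 to TG5 and 10.5, 8.49, 10.6, 23.3 and 8.05 FPKM in WT1 to WT5. WT4 lay within the HSD17B1TG range, and the other 4 WT mice lay below all HSD17B1TG mice. The means were 23.1 ± 5.26 and 12.2 ± 6.30 FPKM (SD, n = 5 each), a ratio of 1.90. The log2 fold change was 0.92 (SE 0.29), and it was 1.29 without WT4.

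**Figure D1:**
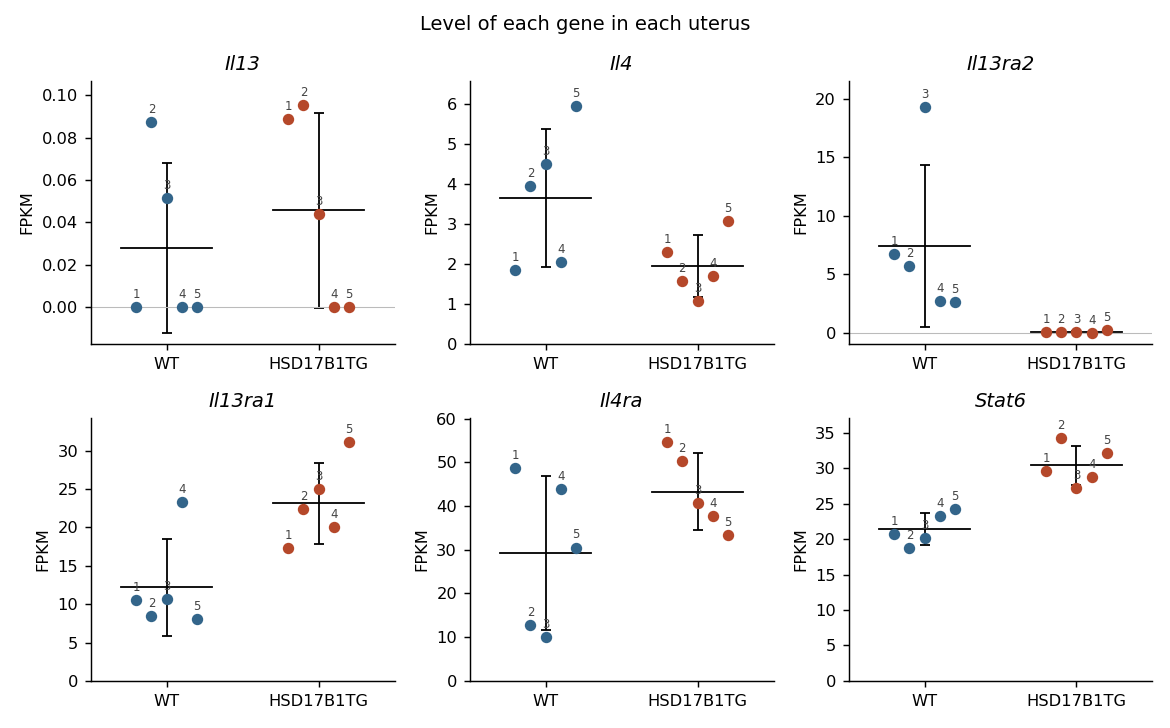
Level in FPKM on a linear axis of each of the 6 genes in each uterus, with mice numbered 1 to 5, horizontal lines for the mean and bars for the SD (n = 5 per group). The groups are separate for *Il13ra2* and *Stat6*, WT4 lies among the HSD17B1TG mice for *Il13ra1*, and all values of *Il13* are under 0.1 FPKM.

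Beside the signalling chain, the decoy *Il13ra2* made up 39.1%, 40.0%, 64.6%, 10.3% and 24.5% of the summed FPKM of both chains in WT1 to WT5. In TG1 to TG5 it made up 0.136%, 0.113%, 0.0934%, 0% and 0.631%. *Il13ra2* was thus the more abundant of both chains in WT3 alone. The level of *Il13ra1* was 0.549 to 8.70 times that of *Il13ra2* in WT, and 158 times in TG5, the only HSD17B1TG mouse with more than 3 counts of *Il13ra2*.

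**Figure D2:**
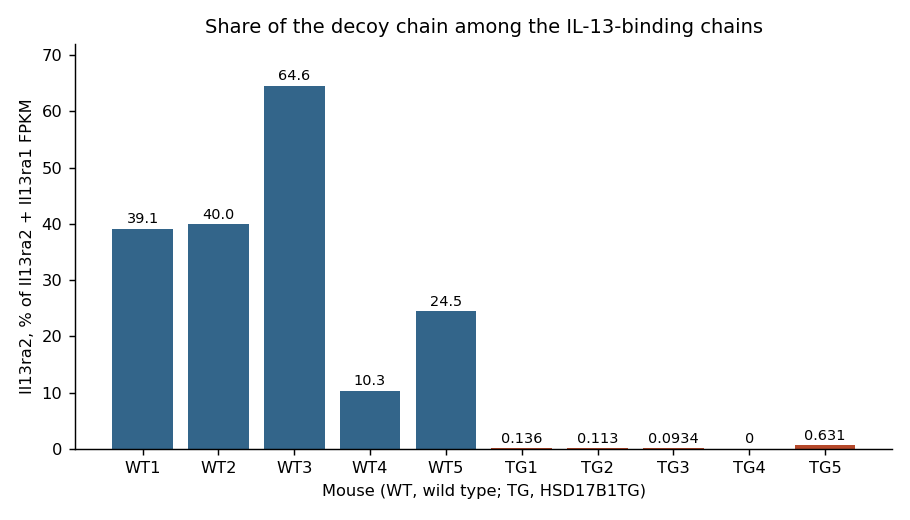
Share of *Il13ra2* in the summed FPKM of *Il13ra2* and *Il13ra1* in each mouse, in percent, with 1 bar per uterus. The WT bars range from 10.3% (WT4) to 64.6% (WT3), and the HSD17B1TG bars are at or under 0.631%.

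*Il4ra* (ENSMUSG00000030748, chr7:125552120-125579474, plus strand), the chain shared by the IL-4 and IL-13 receptors, was the gene of the group with the highest mean level in both genotypes. It had 54.6, 50.3, 40.7, 37.6 and 33.3 FPKM in TG1 to TG5 and 48.6, 12.7, 9.99, 44.0 and 30.5 FPKM in WT1 to WT5. WT1 and WT4 lay within the HSD17B1TG range, and the other 3 WT mice below it. The means were 43.3 ± 8.87 and 29.2 ± 17.6 FPKM (SD, n = 5 each), and the log2 fold change was 0.57 (SE 0.40). The ratio of *Il4ra* to *Il13ra1* overlapped between the genotypes, with 1.07 to 3.16 in HSD17B1TG and 0.942 to 4.62 in WT. An antisense gene, *Gm44876*, overlaps *Il4ra* by 1342 bases, and since the strand setting of the counting is not given in the sources used here, their reads may not be separated.

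*Stat6* (ENSMUSG00000002147, chr10:127642986-127660957, plus strand), which encodes the transcription factor at the end of both receptors, was higher in every HSD17B1TG mouse than in any WT mouse, by a fold under 2. It had 29.6, 34.3, 27.2, 28.8 and 32.1 FPKM in TG1 to TG5 and 20.7, 18.7, 20.2, 23.2 and 24.3 FPKM in WT1 to WT5. The lowest HSD17B1TG mouse, TG3, lay above the highest WT mouse, WT5. The means were 30.4 ± 2.80 and 21.4 ± 2.27 FPKM (SD, n = 5 each), a ratio of 1.42, with a log2 fold change of 0.50 (SE 0.12). 

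Ordered by mean FPKM, the WT uterus had *Il4ra* (29.2), *Stat6* (21.4), *Il13ra1* (12.2), *Il13ra2* (7.41), *Il4* (3.66) and *Il13* (0.0278). In HSD17B1TG the order was *Il4ra* (43.3), *Stat6* (30.4), *Il13ra1* (23.1), *Il4* (1.96), *Il13ra2* (0.0538) and *Il13* (0.0457). Neighbours in the WT order overlapped over mice from *Il4ra* to *Il4*. In HSD17B1TG, *Il4ra* and *Stat6* overlapped, as did *Stat6* and *Il13ra1*, and *Il13ra2* and *Il13* overlapped near 0.

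Within the WT group, 4 genes of the group varied more between mice than most genes did. The coefficient of variation over WT mice was 93.3% for *Il13ra2*, 60.3% for *Il4ra*, 51.7% for *Il13ra1* and 47.2% for *Il4*, against a median of 21.6% over the 13810 genes above 1 FPKM in WT. *Il13ra2* varied more than 96.8% of those genes, and *Stat6*, with 10.6%, varied more than 14.3%. In HSD17B1TG the coefficients were 22.8% for *Il13ra1*, 20.5% for *Il4ra*, 39.2% for *Il4* and 9.21% for *Stat6*, against a median of 26.1% over 13771 genes. The order of the WT mice differed from gene to gene. *Il13ra2* was highest in WT3 and lowest in WT5, *Il4ra* highest in WT1 and lowest in WT3, *Il4* highest in WT5 and lowest in WT1, and *Il13ra1* highest in WT4 and lowest in WT5. The cycle phase of each WT mouse is not given in the labels, and its part in this spread was not tested.

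Of 23 kinases, adaptors, phosphatases, SOCS genes, coactivators and other partners of receptor and STAT6, 2 were called up and 0 down by edgeR. Over all genes tested 2.16% were called up and 2.08% down. At an unadjusted edgeR p under 0.05, 5 genes of the list were higher and 3 lower. The share of all genes at that unadjusted threshold is not given, so nothing is read from counts at it, here or below. The median log2 fold change of the list was 0.15, against 0.00 over all genes tested, and 17 of its genes were higher and 6 lower in HSD17B1TG. *Parp14*, a coactivator of STAT6, rose from 5.96 ± 1.18 to 14.0 ± 5.86 FPKM (SD, n = 5 each; log2 fold change 1.23, SE 0.26, edgeR adjusted p = 0.0292). Its lowest HSD17B1TG mouse had 8.84 FPKM and its highest WT mouse 7.99 FPKM, so that the groups did not overlap.

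*Chil1*, whose chitinase-like product is a ligand of IL13RA2, rose from 0.427 ± 0.805 to 18.0 ± 20.8 FPKM (log2 fold change 5.37, SE 1.33, edgeR adjusted p = 0.0437). The spread was wide and the groups touched, with WT4 at 1.86 FPKM and TG1 at 1.84 FPKM. *Jak2*, the kinase with the highest level in the list, had 43.8 ± 13.8 FPKM in HSD17B1TG and 42.5 ± 7.97 FPKM in WT (log2 fold change 0.04, SE 0.24). The common gamma chain *Il2rg* had 1.25 ± 0.453 FPKM in HSD17B1TG and 3.28 ± 1.65 FPKM in WT with groups that did not overlap, and it was not called (edgeR adjusted p = 0.0618). It was picked out after its values were seen. The count of 2 genes called up became 3 without TG1 or without WT4, 1 without TG3 and 0 without any of the other mice, and 1 gene was called down without WT4. *Parp14* was called without TG1, TG3 or WT4 and *Chil1* without TG1 or WT4. The log2 fold change of *Chil1* was 7.89 without WT4 and 4.41 without TG3.

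Among type 2 cytokines, alarmins and their receptors, 14 of 20 listed genes were tested, with 1 called up and 1 called down and a median log2 fold change of 0.38. *Il17rb*, a receptor chain for the cytokine IL-25, fell by 4.33 on the log2 scale (SE 0.97, edgeR adjusted p = 0.0340). Its levels were 0.420, 1.54, 3.38, 0.502 and 2.06 FPKM in TG1 to TG5 and 15.4, 29.6, 102, 4.36 and 6.40 FPKM in WT1 to WT5. The groups did not overlap, and WT3 was again the highest WT mouse. Without WT3 the log2 fold change of *Il17rb* was -3.17.

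*Osmr*, a chain of the receptors of oncostatin M and IL-31, rose from 1.91 ± 1.45 to 6.84 ± 2.21 FPKM (log2 fold change 1.84, SE 0.46, edgeR adjusted p = 0.0442), with its groups apart. *Csf2ra*, a chain of the GM-CSF receptor and the gene of this list with the highest mean level over all 10 mice, had 22.2 ± 1.88 FPKM in HSD17B1TG and 16.0 ± 4.50 FPKM in WT (adjusted p = 0.155). The cytokine *Il5* was not tested and had 0.0778 ± 0.136 and 0.0355 ± 0.0594 FPKM. It was picked out after its values were seen. The upward count was 2 without TG3 or WT4, 1 without TG1 and 0 otherwise, and the downward count was 1 without TG1, TG3 or WT4 and 0 otherwise. *Il17rb* and *Osmr* were called without each of these 3 mice.

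Genes known to be induced through STAT6 in macrophages, epithelia and other cells made a further list. Of 35 listed genes 24 were tested, of which 3 were called up and 1 down, 18 were higher and 6 lower in HSD17B1TG, and the median log2 fold change was 0.89. *Pparg*, a nuclear receptor of lipid metabolism and macrophage polarization, had 3.12, 2.86, 2.84, 3.72 and 3.26 FPKM in TG1 to TG5 and 0.634, 0.624, 0.315, 0.787 and 0.364 FPKM in WT1 to WT5. The groups did not overlap, and *Pparg* rose by 2.53 on the log2 scale (SE 0.29, edgeR adjusted p = 0.00956). It was called in all 10 fits that left out 1 mouse.

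*Irf4*, a transcription factor of lymphocytes and alternatively activated macrophages, rose from 0.685 ± 0.664 to 3.93 ± 1.59 FPKM (log2 fold change 2.52, SE 0.59, edgeR adjusted p = 0.0379). *Clca1*, a secreted protein of mucous epithelium, rose from 82.7 ± 123 to 2104 ± 1471 FPKM (log2 fold change 4.68, SE 1.15, edgeR adjusted p = 0.0424). The summed level of the list was 1298 to 6244 FPKM in HSD17B1TG and 285 to 954 FPKM in WT, and it rests on few high genes. *Clca1* alone had 429 to 4299 FPKM in HSD17B1TG and 2.82 to 299.6 FPKM in WT. In *Irf4* and *Clca1* WT4 was the highest WT mouse, with 1.84 and 299.6 FPKM. Without WT4 the log2 fold change was 3.29 for *Irf4* and 6.21 for *Clca1*. The smallest values with 1 mouse left out were 2.25 for *Irf4* without WT3 and 4.24 for *Clca1* without TG2.

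*Matn2*, a matrix protein, was the gene called down (log2 fold change -1.81, SE 0.47, edgeR adjusted p = 0.0471). It was picked out after its values were seen. *Irf4* and *Clca1* were called without TG1, TG3 or WT4 and not without any other mouse. The upward count was 5 without TG1 or WT4, 3 without TG3, 2 without WT5 and 1 without any of the other mice. The downward count was 1 without TG1 or WT4 and 0 otherwise.

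Among 27 tested receptor genes of the class I cytokine family outside the group, 1 was called up, 1 was called down and the median log2 fold change was 0.06. *Osmr*, shared with the list above, was the gene called up. *Il2rb*, the beta chain of the receptors of IL-2 and IL-15, fell by 3.17 on the log2 scale, from 7.18 ± 4.32 to 0.800 ± 0.648 FPKM (SE 0.64, edgeR adjusted p = 0.0260). *Il6st*, the signalling chain of the IL-6 family and the gene of this list with the highest level, had 46.8 ± 7.88 FPKM in HSD17B1TG and 48.3 ± 15.5 FPKM in WT. The upward count was 2 without TG1 or WT4, 1 without TG3 and 0 otherwise. *Il2rb* was called down without TG1, TG2, TG3 or WT4 and not without any other mouse. Its log2 fold change was -3.78 without TG2 and -2.90 without WT3. The downward count was 2 without WT4, 1 without TG1, TG2 or TG3 and 0 otherwise.

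Of the 6 other STAT genes none was called by edgeR, DESeq2 or voom, and 3 were higher and 1 lower at an unadjusted p under 0.05. In all, 5 were higher and 1 lower in HSD17B1TG. The median of the list was 0.44 on the log2 scale, and 1 gene was called up without TG1 or without WT4. *Stat2*, a factor of interferon signalling, had 12.6 ± 3.40 FPKM in HSD17B1TG and 6.53 ± 1.88 FPKM in WT (log2 fold change 0.95, SE 0.24), and its change passed the p-value threshold (edgeR adjusted p = 0.0444) but not the fold required. It was picked out after its values were seen. *Stat3*, the STAT gene with the highest level in this list, had 30.1 ± 2.52 and 23.6 ± 8.73 FPKM (adjusted p = 0.390).

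**Figure D3:**
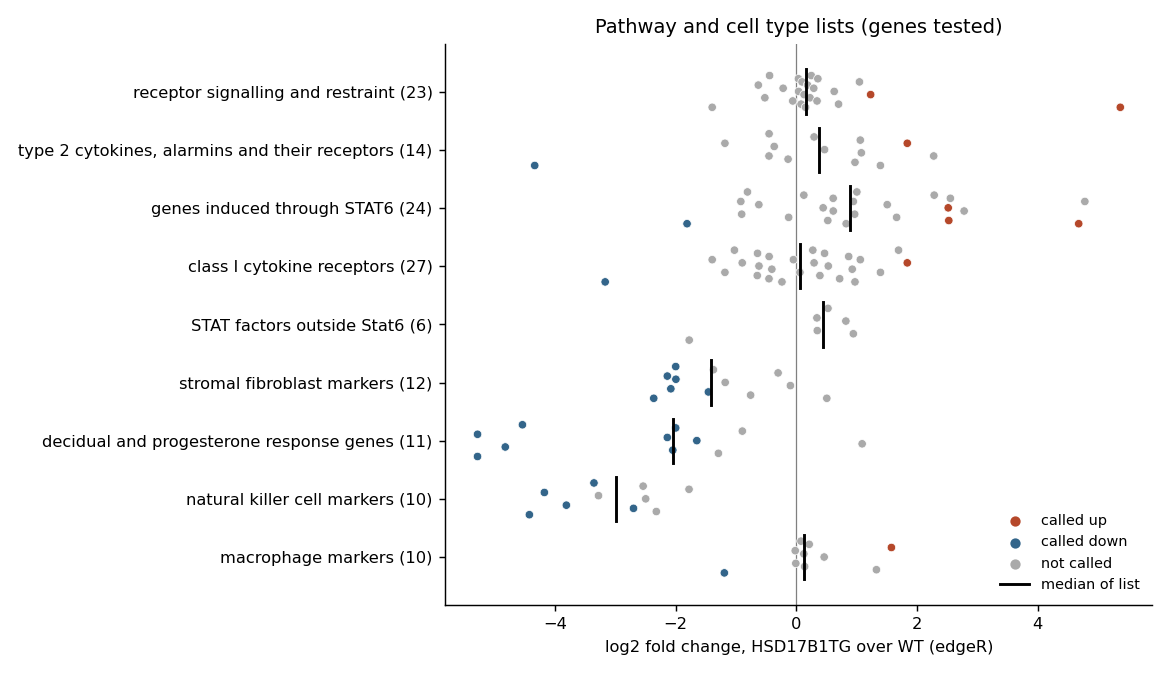
Log2 fold change (edgeR, HSD17B1TG over WT) of each tested gene of 9 lists, with 1 point per gene, red for genes called up, blue for genes called down, grey for genes not called and a bar for the median of the list. The medians lie at 0.15 for receptor signalling, 0.89 for genes induced through STAT6, -1.41 for stromal markers and -2.99 for natural killer cell markers.

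Markers of other cell types moved with genotype. Of 12 stromal fibroblast markers 6 were called down and 0 up, with a median log2 fold change of -1.41 and a summed level of 591 to 2243 FPKM in HSD17B1TG and 2064 to 2507 FPKM in WT. *Pdgfra* and *Hand2*, markers of the endometrial stroma, fell by 1.99 (SE 0.36, edgeR adjusted p = 0.0219) and 1.998 (SE 0.33, edgeR adjusted p = 0.0177) on the log2 scale. Of 11 tested decidual and progesterone response genes 8 were called down and 0 up, with sums of 47.0 to 74.8 FPKM in HSD17B1TG and 71.3 to 417 FPKM in WT. Of 10 natural killer cell markers 5 were called down and 0 up, with sums of 2.83 to 12.8 and 13.1 to 118 FPKM. The stromal and decidual lists share *Hoxa10* and *Hand2*. With voom 5 stromal, 3 decidual and progesterone, and 3 natural killer cell genes were called down, and with log2(FPKM + 1) 2, 1 and 2. The counts called down also depended on single mice. Stromal markers went from 6 to 0 without TG5, 1 without TG2 or WT5, 2 without TG4, WT2 or WT3 and 4 to 7 without TG1, TG3, WT1 or WT4. Decidual and progesterone genes went from 8 to 0 without TG5, 1 without TG2 or TG4, 2 to 5 without TG3, WT1, WT2, WT3 or WT5, and 7 to 8 without TG1 or WT4. Natural killer cell markers went from 5 to 1 without TG4, TG5, WT1, WT2, WT3 or WT5, and were 4 to 7 without the others. Leaving out each mouse in turn, *Pdgfra* was called in 7 and *Hand2* in 9 of 10 fits, neither of them without TG5, *Pdgfra* also not without TG2 or WT5. In these bulk samples fewer cells of a type and less RNA per cell cannot be told apart.

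As a description, the level of *Il13ra2* was set beside those of *Pdgfra* and *Hand2*, 2 of the 12 stromal markers. The level of *Il13ra2* divided by that of *Pdgfra* was 0 to 0.0256 in HSD17B1TG and 0.0446 to 0.289 in WT, and divided by that of *Hand2* it was 0 to 0.0374 and 0.0927 to 0.583. Neither ratio overlapped between the genotypes. The mean FPKM of WT was 3.96 times that of HSD17B1TG for *Pdgfra*, 3.97 times for *Hand2* and 138 times for *Il13ra2*. The separation thus came largely from *Il13ra2*, on whose difference the group was chosen, and nothing is read from it. The stromal markers did not move alike, and *Dcn* and *Lum*, both matrix proteoglycans and picked out after their values were seen, had log2 fold changes of -0.10 and 0.51 and were not called. Which cells of the uterus carried *Il13ra2*, and the part of the stroma in its level, was not tested.

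Markers of the cells that make or answer IL-4 and IL-13 were low for eosinophils and T cells in RNA of the uterus. By histology the study showed eosinophils in HSD17B1TG uteri at an older age, and these RNA levels do not count cells. Of 9 eosinophil markers 2 were tested and 0 were called by edgeR, DESeq2 or voom or at an unadjusted p under 0.05, the summed level was 1.22 to 1.99 FPKM in HSD17B1TG and 0.988 to 1.70 FPKM in WT, and the defining *Siglecf* had 0.0999 ± 0.141 and 0.0309 ± 0.0359 FPKM. Of 10 T cell markers 5 were tested and 0 called by edgeR, with 2 higher and 1 lower at an unadjusted p under 0.05 and 1 called up by DESeq2. Without TG3 or without WT4, 1 was called up, and without WT4 1 was called down. Their sums were 4.58 to 10.8 and 4.28 to 8.21 FPKM, and *Cd3e* had 0.164 ± 0.0737 and 0.0831 ± 0.0468 FPKM. Of 10 mast cell and basophil markers 7 were tested, with 4 higher and 3 lower in HSD17B1TG, a median of 0.09 on the log2 scale and summed levels of 9.58 to 41.4 FPKM and 27.1 to 60.7 FPKM. *Kit*, a growth factor receptor, and *Hdc*, the enzyme that makes histamine, were called down. The mast cell protease genes *Cpa3*, *Tpsb2*, *Tpsab1*, *Cma1* and *Mcpt4* had log2 fold changes of 0.37, 0.39, 0.54, 0.09 and -0.09 and were not called. Neither *Kit* nor *Hdc* was called without TG2, TG4, TG5, WT1, WT2, WT3 or WT5. With voom *Kit* was called down and *Hdc* was not. On log2(FPKM + 1) and on log2(FPKM + 0.1), 0 genes of this list were called down. Of 10 type 2 lymphocyte markers *Klrg1*, which natural killer cells also carry, was called down, though not without TG5, WT2, WT3 or WT5, and the sums were 10.01 to 33.0 and 17.3 to 40.7 FPKM. *Gata3*, the defining factor of type 2 lymphocytes, had 0.530 ± 0.270 and 0.376 ± 0.197 FPKM. These protease genes, *Kit*, *Hdc* and *Klrg1* were picked out after their values were seen, and the part of these cells in the level of *Il4* was not tested.

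Macrophage markers were present in all mice, with sums of 174 to 298 FPKM in HSD17B1TG and 151 to 228 FPKM in WT. *Cd68* was called up and *Mertk* down among 10, and *Adgre1*, which encodes F4/80, had 3.52 ± 1.44 and 3.53 ± 0.795 FPKM. *Cd68* was called without TG1, TG3 or WT4 only and *Mertk* without those or TG2 only. Both were picked out after their values were seen. Epithelial markers, none of 10 called by edgeR, 2 called up by DESeq2 and 6 higher at an unadjusted p under 0.05, had sums of 605 to 2829 and 452 to 1467 FPKM, with *Epcam* at 303 ± 147 and 129 ± 73.3 FPKM (adjusted p = 0.117). Without TG1 or without WT4, 4 of them were called up. Smooth muscle markers, none of 8 called by edgeR or DESeq2 or at an unadjusted p under 0.05, had sums of 846 to 7243 and 404 to 5721 FPKM, with *Acta2* at 1467 ± 1209 and 911 ± 981 FPKM (adjusted p = 0.602). Endothelial markers had sums of 22.7 to 91.1 and 55.9 to 132 FPKM. With all mice none of 8 was called by edgeR after the low-count filter, 1 was called down without that filter and 1 by DESeq2. At an unadjusted edgeR p under 0.05, 3 of them were lower, and 1 was called down without TG1 or without WT4. The part of these cells in the higher levels of *Il13ra1*, *Stat6* and the genes induced through STAT6 was not tested.

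The genes whose profile was most like that of *Il13ra2* over the 10 mice were found by the root mean square (RMS) difference of log2 CPM, standardised over the mice, among 14314 protein-coding genes. The 8 most alike were *Lyz1*, a lysozyme (RMS 0.258), *Col22a1*, a collagen (0.283), *Gzmc*, a granzyme (0.346), *Tspan6*, a tetraspanin (0.355), *Prf1*, the perforin of cytotoxic cells (0.366), *Utp14a*, a factor of ribosome synthesis (0.369), *Angptl7*, an angiopoietin-like secreted protein (0.369), and *Hrk*, a regulator of apoptosis (0.370). Each was lower in every HSD17B1TG mouse than in any WT mouse, which the measure favours, and WT3 was the highest mouse for all of them except *Hrk*, for which it was WT5. *Tspan6* and *Utp14a* are also on the X chromosome, but the share of X-linked genes among those compared was not counted.

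The 8 genes had levels far apart. *Col22a1* had 0.0523 ± 0.0385 FPKM in HSD17B1TG and 2.26 ± 2.38 FPKM in WT, *Angptl7* had 2.65 ± 1.27 and 156 ± 192 FPKM, and *Utp14a* had 8.27 ± 0.524 and 10.7 ± 0.705 FPKM. *Gzmc* was the nearest in the size of its change, with 0 counts in 4 of the 5 HSD17B1TG mice and 30 to 258 counts in WT mice. *Lyz1* has the close paralog *Lyz2* and *Gzmc* lies in a cluster of related granzyme genes, so reads of these genes may be split between copies. The values of the profile set the choice of these genes, and no test is given for them.

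**Figure D4:**
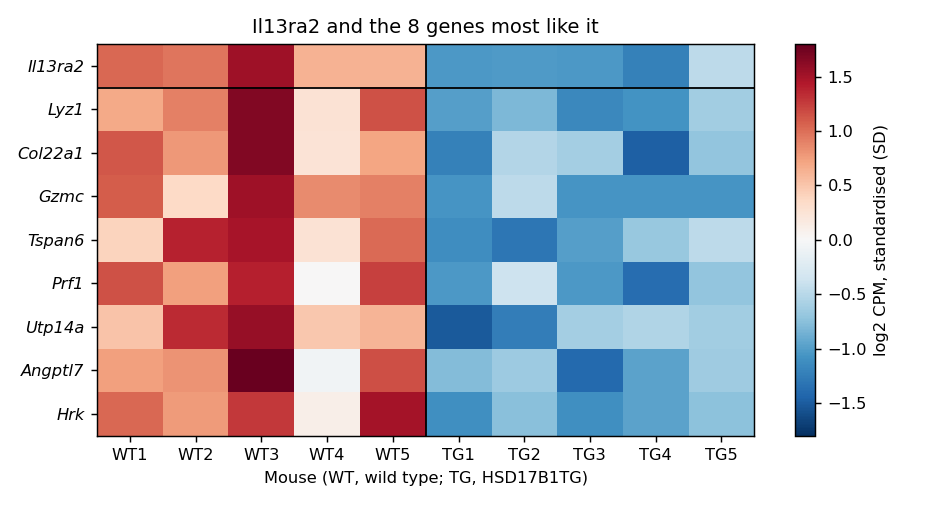
Standardised log2 CPM of *Il13ra2* and of the 8 genes most like it, with 1 row per gene and 1 column per mouse, red for above and blue for below the mean of the gene over the 10 mice, in SD. All 5 HSD17B1TG columns are blue, and WT3 is the darkest red for 7 of the 8 genes.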

How the data were processed

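RNA-seq of the uterus was made from 5 HSD17B1TG and 5 WT mice with paired reads of 150 bp. Mapping by the authors was with HISAT2 2.0.5 on the Ensembl annotation of GRCm38. The sources used here do not give the counting program or whether it used strand. The deposited table holds for each mouse the raw count per gene. It also holds a signal, which the authors made from the count with a DESeq2 size factor and which was not used for the results, and the deposited FPKM, which are scaled by that factor and by gene length. The deposited log2 fold change and p-value of the authors' DESeq2 comparison were not used, nor were the other deposited tables, which hold a selection of genes and enriched terms.

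Groups follow the genotype label. The counts were fitted across all genes in edgeR 4.0.16 under R 4.3.3 (filterByExpr, TMM, quasi-likelihood, Benjamini-Hochberg over 16993 genes), with the 3 thresholds of the study's methods. No batch is named in the labels. The script was tested on simulated data. The members of the group and the 16 lists were chosen with earlier results of these data known, so they are no independent evidence. Within the lists the genes named are the up to 3 called with the smallest p and, where fewer than 3 were called, the gene with the highest mean FPKM, beside preset cell type markers. Further genes were named outside this rule, and the text says of each that it was picked out after its values were seen. The 8 genes like *Il13ra2* were compared on log2 CPM with a prior count of 2. Alternatives were RLE normalization, DESeq2 1.42.0, voom of limma 3.58.1, no low-count filter, limma on log2(FPKM + 1) and log2(FPKM + 0.1), and each mouse left out. Each library is 1 mouse. Gene overlaps are those of GENCODE M21. The values of 1 listed gene are not reported here.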

Additional observations from a re-analysis of the deposited data

Results flagged for a closer look

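Each of the 6 genes was checked in each genotype for a mouse far from the others, in 12 groups of 5 mice, with Dixon's ratio of the gap to the nearest mouse over the whole range (critical value 0.71). Chance marks about 1 in 20 such groups.

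*Il13ra2* in TG5 was 0.197 FPKM, the highest of the HSD17B1TG mice, with a gap of 0.872 of the range. It rests on 7 counts, against 0 to 1 counts in the other 4 mice. *Il13ra2* in WT3 was 19.3 FPKM, the highest of the WT mice, with a gap of 0.752 of the range. *Il13ra1* in WT4 was 23.3 FPKM, the highest of the WT mice, with a gap of 0.832 of the range, and the log2 fold change of *Il13ra1* was 0.92 with WT4 and 1.29 without it, where it also passed the thresholds for a call.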

How the results depend on the processing

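Of 78 comparisons of a result with an alternative that kept all mice, 60 stayed within the replicate spread or within 1.5 times the count, 18 moved and 0 reversed. The *Il13ra2* log2 fold change was -2.68 on log2(FPKM + 1) and -5.32 on log2(FPKM + 0.1), where the pseudocount bounds it. DESeq2 gave 1 receptor signalling gene down, 2 type 2 genes up, 7 STAT6-induced genes up, and 2 class I receptors up and 2 down. Voom gave 1 receptor signalling gene up, 0 type 2 genes down and 0 STAT6-induced genes down. On log2(FPKM + 1), 0 receptor signalling genes were called up, 0 type 2 genes up and 0 down, 0 STAT6-induced genes down, and 0 class I receptors up and 0 down. On log2(FPKM + 0.1), 0 type 2 genes and 0 STAT6-induced genes were called down. Calls over all genes were 906 up and 666 down with DESeq2, 391 and 189 with voom, 292 and 349 without the filter, and 153 and 78 on log2(FPKM + 1), against 367 and 354. The cause of these differences was not tested.

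With 1 mouse left out, the log2 fold change was -8.45 to -6.37 for *Il13ra2*, 0.78 to 1.29 for *Il13ra1*, 0.32 to 0.80 for *Il4ra*, -1.13 to -0.68 for *Il4* and 0.43 to 0.53 for *Stat6*. Counts were 0 to 3 up and 0 to 1 down for receptor signalling, 0 to 2 up and 0 to 1 down for type 2 genes, 1 to 5 up and 0 to 1 down for STAT6-induced genes, and 0 to 2 up and 0 to 2 down for class I receptors. *Il13* failed the low-count filter, so no fold change was fitted. No paired analysis was possible because no label gives a replicate number, and the unexplained numbers that end the sample titles, of which 1 recurs in both genotypes, were not taken as pairs.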
